A study of Capra hircus with 4 samples.

Results

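The genes SLC2A1, SLC52A3 and SLC26A1 encode membrane carriers for glucose, riboflavin and sulfate. The long non-coding RNA (lncRNA) transcripts listed within 100 kb of these 3 gene loci in goat endometrium, the lining of the uterus, are described here. There were 76 such transcripts among 226416 in the deposited table of all lncRNAs. The 3 genes were 3 of the 386 genes with an identifier that the authors list as predicted cis targets, that is, annotated genes near a lncRNA that differed in their comparison. The genes were thus chosen by the authors' measured values, namely the calls of differential lncRNAs beside them, and the calls at these loci are given as a description without a test. In the deposited tables SLC52A3 stands under its symbol, whereas SLC2A1 and SLC26A1 stand as LOC102174800 and LOC102190499 and were matched by gene identifier to a RefSeq table.

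The study sampled Xinong Saanen dairy goats, multiparous and 24 months old, whose estrus was synchronized and which were mated naturally. All were put under with intravenous barbiturate (30 mg/kg) before they were killed. Receptive endometrium was taken at gestational day 15 (2 libraries) and pre-receptive endometrium at gestational day 5 (2 libraries). Per the labels, RNA was depleted of ribosomal RNA and sequenced from both ends with strand information, and 10 goats were used for each stage. The labels do not say whether a library is 1 goat or a pool. The authors compared a set of libraries called T with a set called C, and the labels do not tie either letter to a stage, so directions are given as T against C only. There are columns of levels, 4 for single libraries, each named with T or C, and 2 for the sets. They match no sample label or labelled group and were not used. The data on expression used here are therefore the authors' fold changes, p and q, without levels or a spread between replicates, and sequencing depth is unknown. The tables used hold no level for a protein-coding gene, so the tissue label was not checked against marker genes. Of 20 marker genes of endometrial and other cell types, 1 (MS4A1, a B cell marker) was a predicted target.

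SLC2A1 (GLUT1) is a facilitative glucose carrier, and in ruminants the uterine epithelium passes glucose into the lumen, where the conceptus takes it up before it implants. SLC52A3 carries riboflavin (vitamin B2), which cells convert into the flavin cofactors of oxidative enzymes. SLC26A1 exchanges sulfate for other anions, and sulfate is needed to make sulfated glycosaminoglycans. A lncRNA can act on genes beside it or can simply be transcribed near them, and a predicted cis target rests on position alone.

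The 3 loci differed in how many lncRNA transcripts surrounded them. The SLC2A1 locus, on chromosome 3 at 99521083 to 99583457, had 49 within 100 kb. The SLC52A3 locus, on chromosome 13 at 58211665 to 58232926, had 17. The SLC26A1 locus, on chromosome 6 at 113880994 to 113911137, had 10. All positions come from the deposited tables. Their genome build is not given in these sources. Over all 386 target genes the median was 20 transcripts, the quartiles were 13 and 26 and the range ran from 5 to 54, so SLC2A1 stood near the top, with more transcripts at 7 of the other genes. SLC26A1 stood low, with more at 333 genes, and SLC52A3 lay near the middle, with more at 227. Scaled to 100 kb of window, SLC2A1 had 18.7 transcripts, SLC52A3 7.68 and SLC26A1 4.35, beside a median of 7.97 over the target genes.

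**Figure D1:**
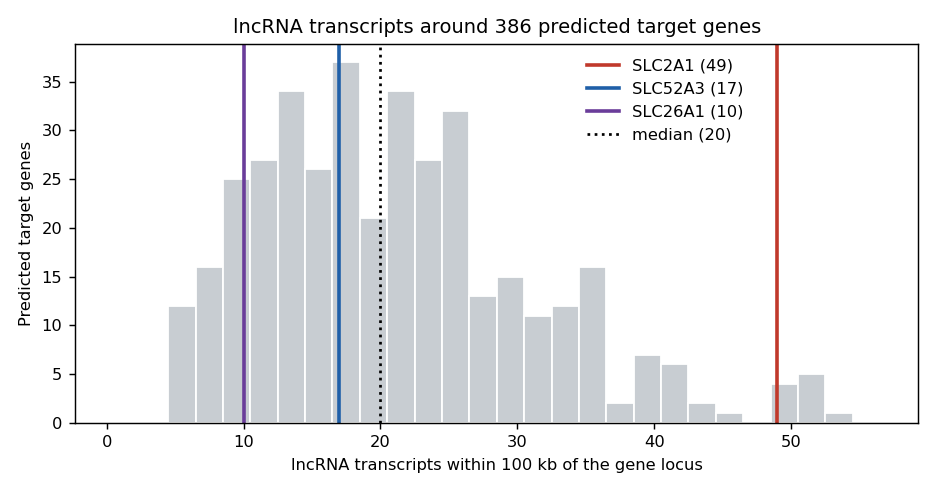
Histogram of the number of lncRNA transcripts within 100 kb of each of 386 predicted target genes (x axis, transcripts, and y axis, genes), with the 3 transporter genes as coloured lines and the median as a dotted line. SLC2A1 (49) lies in the upper tail, SLC52A3 (17) just under the median of 20 and SLC26A1 (10) in the lower part.

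Many of these transcripts shared a listed position, since the tables give an assembled locus and not the ends of each transcript. At SLC2A1, 26 of 49 transcripts shared a position with another, and the 49 took up 29 positions. With each position counted once, SLC2A1 had more than the median of 16 positions and 32 genes had more. At SLC52A3, 7 of 17 shared a position, and at SLC26A1 none of the 10 did. The share over all 3 loci was 43.4%, against 28.7% over all transcripts in the table. A gap given below is thus the gap between 2 assembled loci, and a transcript itself can lie farther away.

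The flanking transcripts were mostly intergenic, 71 of 76 or 93.4%, against 98.3% of all transcripts. Of the other 5, 4 were at SLC2A1. TCONS_00330907 overlapped exons of SLC2A1 itself, and TCONS_00330913 lay antisense to LOC102183755, a pseudogene listed at the same locus. TCONS_00330921 was antisense to ERMAP, a membrane protein gene of erythroid cells, and TCONS_00330930 was antisense to LOC102184582. At SLC26A1, TCONS_00398287 overlapped exons of LOC102188394. All 17 transcripts at SLC52A3 were intergenic. The other transcripts listed over the SLC2A1 locus, TCONS_00330908, TCONS_00330915, TCONS_00330916 and TCONS_00343479, carried the intergenic class code. That listed locus is shared by SLC2A1, LOC102183480 and LOC102183755, so it is not the extent of SLC2A1 alone. Counts and gaps at SLC2A1 are therefore those of the shared locus.

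The transcripts were spread unevenly to the sides of each gene. At SLC2A1, 33 lay at lower coordinates, 6 were listed over the gene locus and 10 lay at higher coordinates. Of the 33, 11 shared a single position, 99384343 to 99445941, which reaches into the window only with its end. The longest position at this gene was that of the locus itself, 62375 bp, whereas at SLC52A3 the longest was 20635 bp (shared by TCONS_00088626, TCONS_00088627 and TCONS_00096147) and at SLC26A1 4559 bp (TCONS_00408996). The nearest transcripts outside the gene locus were TCONS_00330906, 10308 bp below it, and TCONS_00330917, 73 bp above it. At SLC52A3, 5 lay at lower and 12 at higher coordinates, with TCONS_00096141 at 117 bp below the locus and TCONS_00088624 and TCONS_00096144, at 1 shared position, 3582 bp above it. At SLC26A1, 6 lay lower and 4 higher, with a gap of 28867 bp to TCONS_00398292 below and of 48815 bp to TCONS_00408994 above, and none overlapped the locus. The farthest members had gaps of 82152 bp at SLC2A1, 68663 bp at SLC52A3 and 86602 bp at SLC26A1, and the nearest transcripts left out had gaps of 122470, 110035 and 105962 bp.

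**Figure D2:**
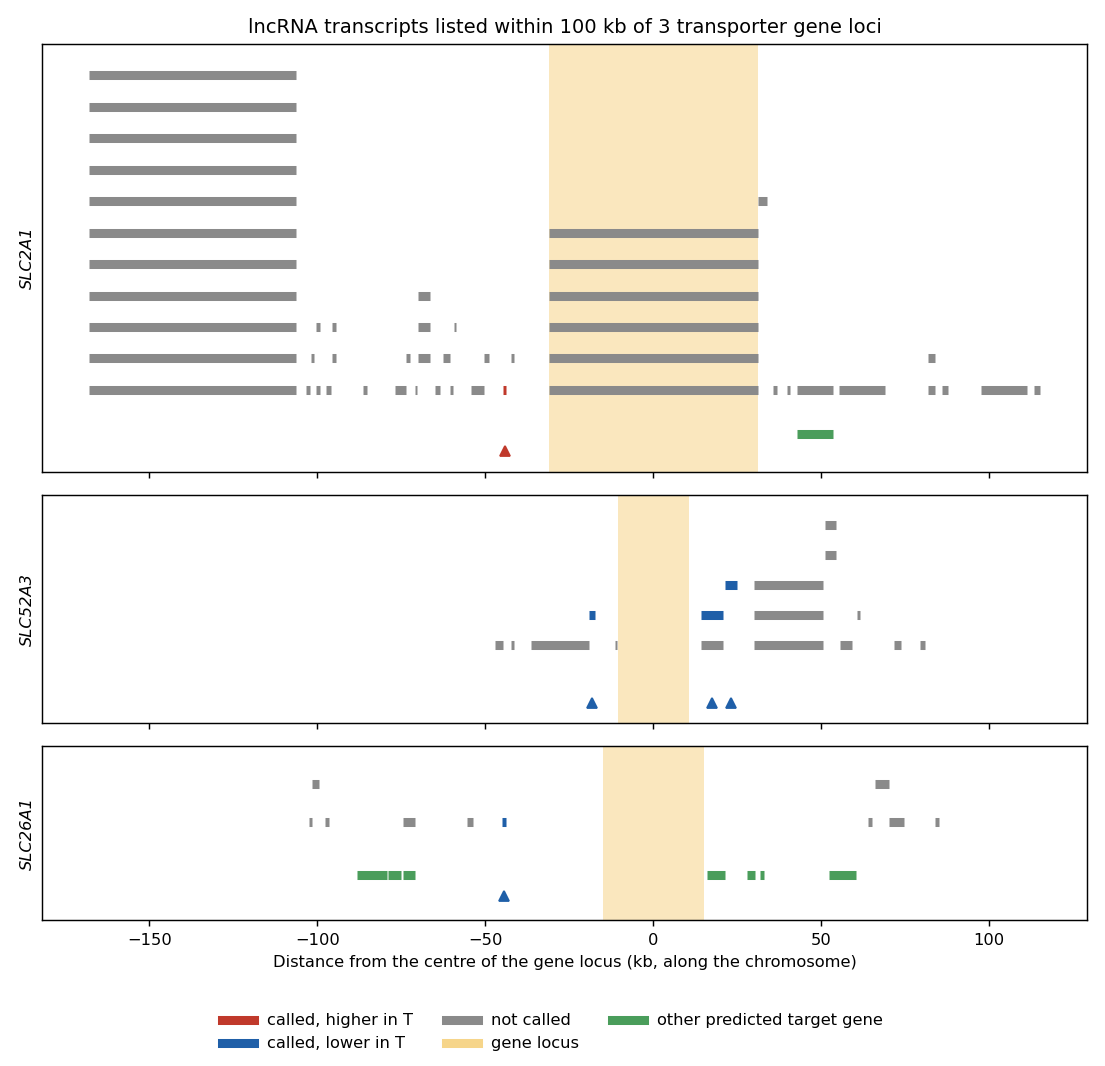
Map of the lncRNA transcripts listed within 100 kb of SLC2A1, SLC52A3 and SLC26A1, drawn by distance in kb from the centre of the gene locus (x axis), with overlapping transcripts stacked, the shortest bars widened so as to be visible, and triangles under the called ones. The 1 called lncRNA at SLC2A1 is higher in T, and the 3 at SLC52A3 and the 1 at SLC26A1 are lower in T. Stacks of equal bars are transcripts that share a listed position.

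Coding potential was low by both deposited scores. Over the 76 transcripts the CPC score ran from -1.31 to -1.004 with a median of -1.09, against a median of -1.13 over all lncRNAs. The CNCI score ran from -0.184 to -0.00041 with a median of -0.0231, against -0.0328 over all. A score below 0 stands for a non-coding transcript. Over all lncRNAs the highest CPC score was -1.0 and the highest CNCI score -0.00041. The scores may thus have been used to select the listed lncRNAs, and the low values at these loci may only reflect that selection.

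The comparison of T with C asks which lncRNAs differed between the stages. The authors called 5 of the 76 transcripts (6.58%), 1 higher in T and 4 lower, and 71 were not called. Whether the transcripts that were not called, here or elsewhere, were tested is not known, so they are not read as unchanged. Over all transcripts the authors called 0.295%, with 0.177% higher and 0.118% lower. As genes were listed only where a called lncRNA lay near, nothing is read from the larger share here. All 5 were intergenic, and 1 of them, at SLC26A1, had q under 0.05 in the authors' deposited table, beside 0.0053% of all transcripts.

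At SLC2A1, TCONS_00345241 (chromosome 3, 99507635 to 99508566) was the called transcript. It was listed higher in T, with an infinite fold change because it was listed at 0 in C, so no fold is given. Its p was 0.00055 and its q, the p adjusted for the number of transcripts compared, was 0.191 in the authors' deposited table, so it did not pass a q of 0.05. Of the 401 calls that were higher in T, 354 were listed at 0 in C, so this was the common form of a higher call. Among these 354 calls, 18 had a smaller p, and their median p was 0.00995. It lay 12517 bp below the SLC2A1 locus, and TCONS_00330906, which lies between it and the gene, was not called.

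At SLC52A3, 3 transcripts were called, all lower in T. TCONS_00096138 (chromosome 13, 58203306 to 58205030) was 9.73-fold lower in T, a log2 change of -3.28, and its p was 0.0296 and its q 0.756 in the authors' deposited table. It lay 6635 bp below the gene. TCONS_00096144 (58236508 to 58243116) was 6.65-fold lower in T, a log2 change of -2.73, and the authors' deposited table gave it p = 0.00705 and q = 0.457. TCONS_00096145 (58243657 to 58247161) was 7.79-fold lower in T, a log2 change of -2.96, for which the authors' deposited table gave p = 0.0185 and q = 0.611. These 2 lay 3582 and 10731 bp above the gene. The 3 thus stood on both sides of SLC52A3 within 43.9 kb and were called in 1 direction, and none passed a q of 0.05.

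Within that stretch 2 transcripts were not called, TCONS_00096141 and TCONS_00088624. TCONS_00088624 has the same listed position as the called TCONS_00096144. In the deposited list of pairs TCONS_00096138 is in the distance class of 10 kb, and TCONS_00096144 and TCONS_00096145 are in that of 100 kb, although the listed gap of TCONS_00096144 is the smallest of the 3. In the list of pairs, 3 lncRNAs was the most that any target gene had, and 14 of 386 genes had 3. A single lncRNA was listed for 341. By the window of 100 kb used here, 24 of the 386 genes had at least 3 called lncRNAs, 9 had more than 3 and the most was 7, so SLC52A3 did not stand at the top by that measure.

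At SLC26A1, TCONS_00398292 (chromosome 6, 113850904 to 113852127) was the called transcript. The log2 change in the authors' deposited table was -3.39, with p = 5e-05 and q = 0.0365. That p was the smallest in the table and was shared by 12 of its 668 calls. All p listed there were multiples of 5e-05, so a smaller p may not have been possible.

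The 4 lncRNAs at SLC52A3 and SLC26A1 all had lower log2 changes than the median of the lower calls above 0 in both sets. The rest of the 267 lower calls were listed at 0 in T, have no finite log2 change and are left out of these ranks. Over the 237 calls that were lower in T and above 0 in both sets, the log2 change had a median of -1.94. A lower log2 change was listed for 15 of them than for TCONS_00398292, for 18 than for TCONS_00096138, for 36 than for TCONS_00096145 and for 53 than for TCONS_00096144. By p they stood farther apart. No call had a smaller p than TCONS_00398292, which shared the smallest listed p, 5e-05, with other calls. By contrast, 34 of the 237 had a smaller p than TCONS_00096144, 84 than TCONS_00096145 and 129 than TCONS_00096138. Of the 3 at SLC52A3, the lncRNA with the lowest log2 change, TCONS_00096138, was thus the one with the largest p.

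**Figure D3:**
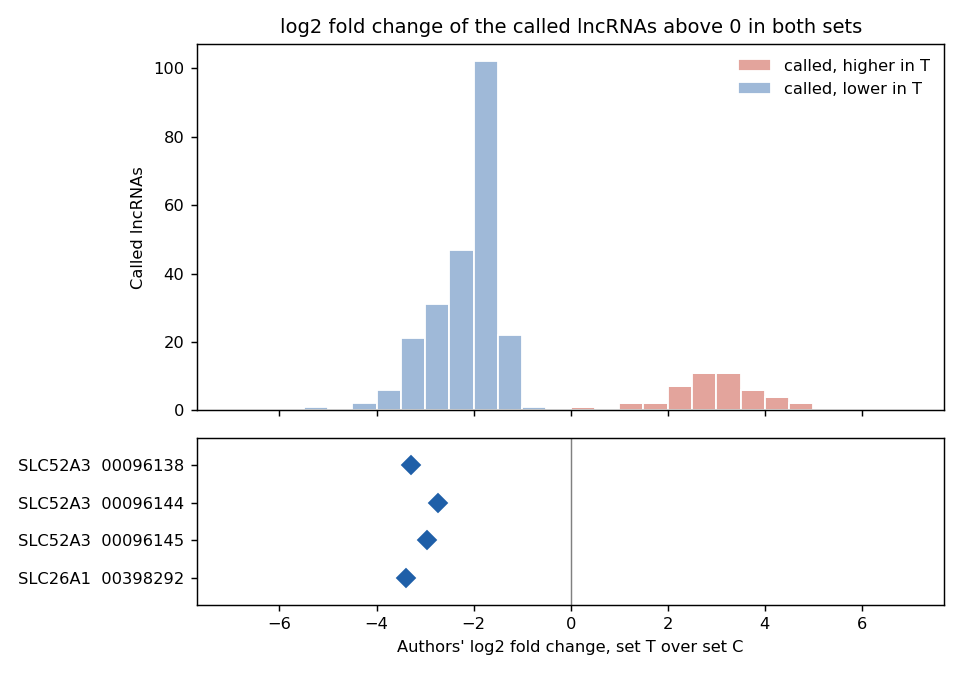
Upper panel, histogram of the authors' log2 fold change of set T over set C (x axis) for the 284 called lncRNAs above 0 in both sets (y axis, number of lncRNAs, 47 higher and 237 lower in T), and lower panel, the log2 fold change of the 3 lncRNAs at SLC52A3 and the 1 at SLC26A1 on the same x axis. The 4 lie between -2.73 and -3.39, below the median of -1.94 of these 237 lower calls, and TCONS_00345241 at SLC2A1 is not drawn because its fold change is infinite. Each point is 1 deposited value with no error.

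No other called lncRNA lay close by. The next one outside the windows was 1961 kb from SLC2A1 (TCONS_00331212), 384 kb from SLC52A3 (TCONS_00096189) and 772 kb from SLC26A1 (TCONS_00398217), and these 3 were all lower in T.

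The next comparison asks whether the transporter genes' own transcripts differed between the sets. The authors listed 6 transcripts of the 3 genes, 3 higher and 3 lower in T, with 5 at a p of 1, and 0 had p under 0.05. Over all 816 target transcripts with a direction, 4.41% had p under 0.05, 67.3% had a p of 1 and 68.3% were listed lower. The headers do not say what a p of 1 stands for, so it is not known whether those 5 were tested. After Benjamini-Hochberg adjustment over the 816, 0.98% passed 0.05.

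Both SLC2A1 transcripts, TCONS_00330909 and TCONS_00330910, were listed higher in T with p = 1 in the authors' deposited table, the direction of TCONS_00345241. Of the SLC52A3 transcripts, TCONS_00088622 was listed lower, and its p in the authors' deposited table was 0.219 (Benjamini-Hochberg adjusted p = 1), and TCONS_00088623 lower with p = 1. This is the direction of the 3 lncRNAs beside SLC52A3, but neither passed, and 68.3% of all 816 target transcripts were listed lower. Whether lncRNAs and their target genes share a direction was not tested. The SLC26A1 transcripts went apart, with TCONS_00398303 listed higher and TCONS_00398305 listed lower, both at p = 1 in the authors' deposited table. No fold change or level is given for these transcripts in the tables used, so the size of any difference is unknown.

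The lncRNAs at SLC2A1 and SLC26A1 were paired with further genes, while those at SLC52A3 were paired with SLC52A3 only. TCONS_00398292 had 9 target genes, the most of the 255 lncRNAs with a target, whose median was 1. The authors' deposited table gave 15 transcripts for them, 4 listed higher and 11 lower, with 0 at p under 0.05. IDUA, the lysosomal enzyme that removes iduronic acid from glycosaminoglycans, had the transcript of smallest p (TCONS_00398283, listed lower, p = 0.164 in the authors' deposited table, Benjamini-Hochberg adjusted p = 1). For DGKQ, a diacylglycerol kinase, the authors' deposited table gave 1 transcript, listed lower at p = 0.528. TMEM175, a potassium channel of lysosomes, had 1 transcript listed lower and 1 listed higher, at p = 0.519 and p = 1 in the authors' deposited table. The SLC26A1 locus is also the listed position of LOC102188666, so the 2 genes cannot be told apart by position in these tables.

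TCONS_00345241 had 4 target genes with 10 transcripts, 5 listed higher and 5 lower, 8 of them at p = 1 in the authors' deposited table. The zinc finger gene ZNF691 had 6 of them, with a smallest p of 0.989 there. LOC102183480, at the same listed locus as SLC2A1, was listed higher with p = 0.47 in the authors' deposited table. Over the other targets of all 5 called lncRNAs, 11 genes with 21 transcripts, 6 transcripts were listed higher and 15 lower, and 0 had p under 0.05.

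The RefSeq table of another goat assembly, ARS1.2, gives the neighbours of these genes. There IDUA stands directly next to SLC26A1. In the deposited positions IDUA is at 113817047 to 113820992 on chromosome 6, and TCONS_00398292 lies between IDUA and SLC26A1. Its nearest target gene is neither of these but LOC102188394, with a gap of 25701 bp. The gap was 28867 bp to SLC26A1 and 29912 bp to IDUA. ZNF691, LOC102183755 and LOC102183480 stand beside SLC2A1 in ARS1.2, as in the deposited list. On either side of SLC52A3, ARS1.2 has an annotated lncRNA gene, LOC108637404 and LOC108637405. Whether the lncRNAs called here belong to these genes was not tested, because the positions come from tables of different builds or of a build not stated.

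The authors' enrichment lists name the 3 genes to different extents. SLC52A3 was listed under 3 GO terms, all of them annotated to it. One was riboflavin transporter activity (p = 9.81e-06 in the authors' deposited table, Benjamini-Hochberg adjusted p = 0.0073 over 744 terms), where 3 of 200 annotated called lncRNAs and 13 of 60755 in the background were counted. All 3 lie beside SLC52A3, so the term rests on 1 gene, and the 3 are not independent. Of the 744 terms, 20 had an adjusted p under 0.05. Sensory perception of sound had 5 lncRNAs and p = 0.0065 in the authors' deposited table (Benjamini-Hochberg adjusted p = 0.112, not passed). SLC2A1 was listed under 9 GO terms, of which 4 were annotated to it, among them glucose import (p = 0.07) and glucose transmembrane transporter activity (p = 0.141 in the authors' deposited table), each from 1 lncRNA. It was also listed under 3 KEGG pathways of its own, with the smallest p at 0.141 in the authors' deposited table.

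SLC26A1 was listed under 49 GO terms and 12 KEGG pathways. Its own annotation covered 3 of the GO terms and none of the pathways. Its transport term, secondary active sulfate transmembrane transporter activity, had 1 lncRNA and p = 0.103 in the authors' deposited table. The other 46 GO terms and all 12 pathways were annotated to another target of TCONS_00398292, as were the 5 further GO terms of SLC2A1 to another target of TCONS_00345241. Of the 49 terms, 12 had p under 0.05, and 0 of these was an annotation of SLC26A1. The share of all GO terms with p under 0.05 is not given here, so the 12 are not read as many or few. For these genes the deposited lists thus hold terms that belong to another target of the same lncRNA.

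Other carriers of the same nutrients were looked for among the targets. Of 20 genes in the list of glucose carriers, which leaves out the target SLC2A11, only SLC2A1 was a target. Of 6 genes of riboflavin transport and flavin synthesis only SLC52A3 was. Of 16 sulfate and anion carrier genes, SLC26A1 and the sodium sulfate carrier gene SLC13A1 were targets, and of 22 amino acid carrier genes only SLC1A2, a glutamate carrier. A gene can be a target only where a called lncRNA lies near, so the counts say nothing of the carriers' levels. The share of all goat genes that were targets is not known here, so the counts are not read as high or low. A carrier listed only under a LOC number without a RefSeq name would be missed.

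In all, 11 solute carrier genes were targets, paired with 13 lncRNAs, 4 higher and 9 lower in T, where all 668 calls were 401 higher and 267 lower. The 9 include the 3 at SLC52A3. Of all calls, 255 had a target gene, and the balance of these is not given here. Whether the solute carrier calls differ in balance from either set was not tested. SLC13A1 lay 31991 bp from a pair of lncRNAs listed at 0 in C, TCONS_00352720 with q = 0.551 and TCONS_00363125 with q = 0.44 in the authors' deposited table. SLC1A2 lay 59 bp from TCONS_00131286, whose log2 change was -3.66, with q = 0.612 in the authors' deposited table. One of the 22 transcripts of these 11 genes had p under 0.05, against 4.41% of all 816 target transcripts. It was a transcript of SLC1A2, listed lower, whose p was 0.0219 in the authors' deposited table (Benjamini-Hochberg adjusted p = 0.64, not passed). SLC2A11, a hexose carrier, lay 9363 bp from TCONS_00155184, whose log2 change was -3.19, with q = 0.457 in the authors' deposited table. Among the 13 lncRNAs, TCONS_00398292, paired with SLC26A1, was the only one with q under 0.05.

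**Figure D4:**
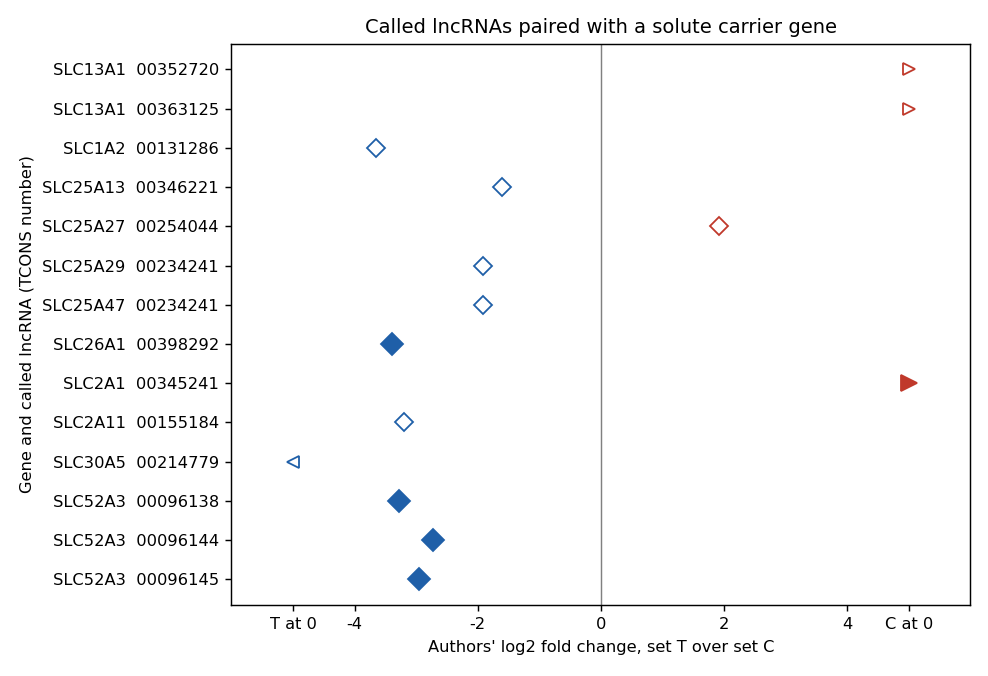
The authors' log2 fold change of set T over set C (x axis) for each called lncRNA paired with a solute carrier gene (y axis, gene and transcript number), red for higher and blue for lower in T, filled for SLC2A1, SLC52A3 and SLC26A1. Side-pointing triangles at the edges are lncRNAs listed at 0 in 1 set, which have no finite fold change. TCONS_00234241 appears on 2 lines because it is paired with SLC25A29 and SLC25A47.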

How the data were processed

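The submitters' processing notes name TopHat, TopHat2, Cufflinks and Cuffdiff but give no role or version. The log2 fold changes of T over C, p-values and q-values were deposited by the authors, per the file headers, as were CPC and CNCI scores per transcript and the number of lncRNAs per GO term. The columns of single libraries (4) and of the sets (2) match no label and were not used, apart from a first look, which showed that the log2 change is T over C. The planned limma fit was therefore not run.

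A member is a lncRNA transcript whose listed locus lies within 100 kb of the listed gene locus. Called lncRNAs are those in the authors' table of differential lncRNAs. The p-values of target transcripts were adjusted over all 816 by Benjamini-Hochberg at 0.05. Of 386 target gene identifiers, 353 were in the RefSeq table of ARS1.2, used for names and neighbours only. The members and gene lists were chosen with earlier results of these data known. Fold sizes were computed from the log2 values. Named were all calls and, per locus, the nearest, overlapping, longest and non-intergenic transcripts, and the other targets of the calls. Exon numbers were not used here, so the transcript with the most exons, which the naming rule also asked for, was not named. The rule for the members also asked for the FPKM values of the flanking lncRNAs in single libraries, which are not described because those columns match no label. The other carriers were named after their values were seen. The counting and adjustment were tested on simulated data. Python 3.11.15, numpy 2.4.6, pandas 2.3.3 and matplotlib 3.10.9 were used.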

Additional observations from a re-analysis of the deposited data

How the results depend on the processing

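Counts depend on the window, which sets them by its construction. At SLC2A1, 9 and 25 transcripts lay within 10 and 50 kb, against 49 within 100 kb, and counting each listed position once, an alternative chosen after seeing the data, gave 29. At SLC52A3, 5 lay within 10 kb and 31 within 200 kb, against 17. At SLC26A1, 0, 3 and 21 lay within 10, 50 and 200 kb, against 10. With a q under 0.05 in place of the authors' list, the 5 calls became 1, with 0 at SLC2A1, 0 at SLC52A3 and 1 at SLC26A1. Calls within 10 kb, also added after seeing the data, were 2 in all, with 0 at SLC2A1 and 0 at SLC26A1. Of 38 alternatives, 24 stayed within 1.5 times the count or on the same side of the threshold. Among them were intergenic transcripts only, gene identifiers counted once, Bonferroni adjustment and calls within 50 and 200 kb. All windows for calls and the count of positions were added after seeing the data. Identifiers and Bonferroni could not move, since each member had its own gene identifier and a Bonferroni value is never below the Benjamini-Hochberg one. Calls within 50 and 200 kb could not move either. The farthest call lay 28867 bp from its gene, and the nearest call outside the windows lay 384 kb away. These alternatives therefore say nothing of how stable the results are, and the 24 is no measure of stability. Adjusted over target transcripts with p under 1 only, SLC52A3 had an adjusted p of 0.499.

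No paired analysis was possible because the level columns carry none of the labels' replicate numbers. The pseudocount, low-value filter, leave-one-out and replicate block settings of the limma fit were not run for the same reason. The smallest p of an exact permutation test of 2 libraries against 2 is 0.333. Depth is unknown, so a value listed at 0 has no upper limit here.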
